A study of Mus musculus with 3 samples.

Results

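Cluster 2 is a group of microglia in the deposited single-cell table of sorted mouse thalamic cells. Its members were the cells that carry the value 2 in the table's clustering column at resolution 0.4, and they were 1338 of 7598 cells. They came from 3 droplet libraries, each of which is a single sample. The WT+IL33 library held 102 of them, the cKO+IL33 library 721 and the WT+Vehicle library 515. All mice were heterozygous for Cx3cr1-creER, a tamoxifen-dependent recombinase driven by the Cx3cr1 promoter, which is active in microglia and other mononuclear phagocytes. The mice of the cKO library were in addition homozygous for floxed ST2 alleles, and Il1rl1 encodes ST2, the chain that binds IL-33. IL-33 or vehicle had been injected into the cerebral ventricles 4 h before CD45+ cells were sorted from the thalamus. The number of mice per library, their age and any tamoxifen schedule were not given in the sources used here.

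Microglia are the resident macrophages of the brain, and their resting identity depends on colony-stimulating factor and TGF-β signalling and on transcription factors such as Sall1 and Mef2. IL-33 is released by other cells of the tissue and acts on microglia through ST2 and its co-receptor, which activate NF-kB. Il7r and Lifr, after which the cluster had been named, encode the interleukin 7 receptor alpha chain and the receptor for leukaemia inhibitory factor. Both receptors signal through JAK kinases and STAT transcription factors.

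The reference population was cluster 0, the larger neighbouring microglial cluster, with 144 cells in WT+IL33, 1374 in cKO+IL33 and 1327 in WT+Vehicle. Summed over cells, cluster 2 held 436915 unique molecular identifiers (UMIs, one per captured transcript) in WT+IL33, 5021953 in cKO+IL33 and 3384491 in WT+Vehicle. Levels are given as UMIs per 1000000 UMIs of such a sum (CPM), and ratios carry a 95% interval for counting error only (exact conditional binomial). There was 1 library per group and cells are not replicates, so no test was made. The authors formed the clusters on these genes, across libraries together, so differences between clusters 2 and 0 describe the split and do not test it. Among all cells, 2 barcodes occurred in more than 1 library, and 1 cluster 2 cell carried such a barcode. The deposited calls put 98.8% of cluster 2 cells in cKO+IL33 as female, all 515 in WT+Vehicle as male and 67.6% in WT+IL33 as female. Between libraries, genotype, treatment and sex therefore cannot be told apart.

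Il1rl1, the targeted gene, had 4 UMIs in cluster 2 of WT+IL33 (9.16 CPM), 74 in cKO+IL33 (14.7 CPM) and 40 in WT+Vehicle (11.8 CPM). Its level in the library labelled cKO was therefore not below the others. The reads come from the 3′ end of transcripts and the floxed exons were not named in the sources, so these UMIs do not check the label. An Il1rl1 UMI was seen in 9.15% of cluster 2 cells in cKO+IL33 and in 6.99% in WT+Vehicle.

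The cells were microglia by their defining markers. P2ry12, Tmem119, Sall1, Siglech, Fcrls, Cx3cr1 and Gpr34 were all present in cluster 2 of every library. Tmem119, a surface protein of resident microglia, stood at 1865 CPM in WT+IL33, 1716 in cKO+IL33 and 1525 in WT+Vehicle, against 1801, 1624 and 1394 CPM in cluster 0. Cx3cr1, the fractalkine receptor, stood at 3332, 3146 and 2902 CPM, against 3060.0, 2761 and 2660.0 CPM in cluster 0. Markers of neutrophils, T cells, mast cells and neurons each summed to at most 2.96 CPM in cluster 2. Border macrophage markers summed to 20.6, 34.1 and 36.9 CPM, most of it Mrc1, with 11.6, 23.0 and 33.3 CPM in cluster 0. Monocyte markers, mainly Plac8 and Vcan, summed to 18.3, 22.5 and 43.7 CPM, and Ly6c2 and Chil3 were at 0 in all 3 libraries. The B cell list summed to 268, 256 and 271 CPM mainly through Ighm and Cd79b, with Cd79a, Ms4a1 and Pax5 at 0. The astrocyte list reached 307, 321 and 187 CPM through Slc1a3, with Gfap and Aldoc at 0. Dendritic cell markers summed to between 26.6 and 64.1 CPM, endothelial markers to between 27.2 and 32.3 CPM and innate lymphoid markers to between 7.68 and 13.7 CPM. Choroid plexus markers reached 22.8 CPM in WT+Vehicle, mostly Ttr, and at most 2.29 CPM in the other libraries. Oligodendrocyte markers summed to between 81.3 and 99.4 CPM, and 1.94% of the cells in cKO+IL33 and 0.971% in WT+Vehicle had UMIs of 3 or more of them.

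The 6 genes proposed as markers had higher levels in cluster 2 than in cluster 0, by less than 2-fold in both deep libraries for all but Hlf. Lifr (chromosome 15, 7090614 to 7197489, plus strand, GRCm38) stood at 240 CPM in cluster 2 of WT+IL33, 210 in cKO+IL33 and 107 in WT+Vehicle. In cluster 0 its levels were 138, 141 and 67.5 CPM. The ratio was 1.49 in cKO+IL33 (1.37 to 1.62) and 1.59 in WT+Vehicle (1.39 to 1.82), so both intervals lay above 1. Il7r (chromosome 15, 9505788 to 9530176, minus strand) stood at 231, 265 and 197 CPM in cluster 2 against 142, 201 and 153 CPM in cluster 0. Its ratio was 1.32 in cKO+IL33 (1.23 to 1.42) and 1.29 in WT+Vehicle (1.17 to 1.42). The receptor that names the cluster thus differed least among the 5 markers whose interval lay above 1 in both libraries.

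Slc8a1 (chromosome 17, 81373105 to 81738377, minus strand), a plasma membrane sodium-calcium exchanger, had 174, 239 and 189 CPM in cluster 2 and 89.2, 146 and 111 CPM in cluster 0. Its ratio was 1.64 in cKO+IL33 (1.51 to 1.78) and 1.70 in WT+Vehicle (1.53 to 1.88). Nav3 (chromosome 10, 109681259 to 110456204, minus strand), a microtubule-binding protein, had 547, 468 and 309 CPM against 398, 305 and 188 CPM, with ratios of 1.53 in cKO+IL33 (1.45 to 1.62) and 1.65 in WT+Vehicle (1.52 to 1.78). Fry (chromosome 5, 150118645 to 150497753, plus strand), another large microtubule-associated protein, had 80.1, 137 and 153 CPM against 64.0, 93.0 and 100.3 CPM. Its ratio was 1.47 in cKO+IL33 (1.32 to 1.63) and 1.52 in WT+Vehicle (1.36 to 1.70), and in WT+IL33 the interval included 1 (1.25, 0.756 to 2.08). Hlf (chromosome 11, 90336536 to 90390895, minus strand), a transcription factor of the PAR bZIP family, had 36.6, 30.3 and 12.1 CPM against 15.5, 12.1 and 9.73 CPM. Hlf was 2.49-fold higher in cKO+IL33 (1.93 to 3.24), while in WT+Vehicle its interval included 1 (1.25, 0.834 to 1.84).

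**Figure D1:**
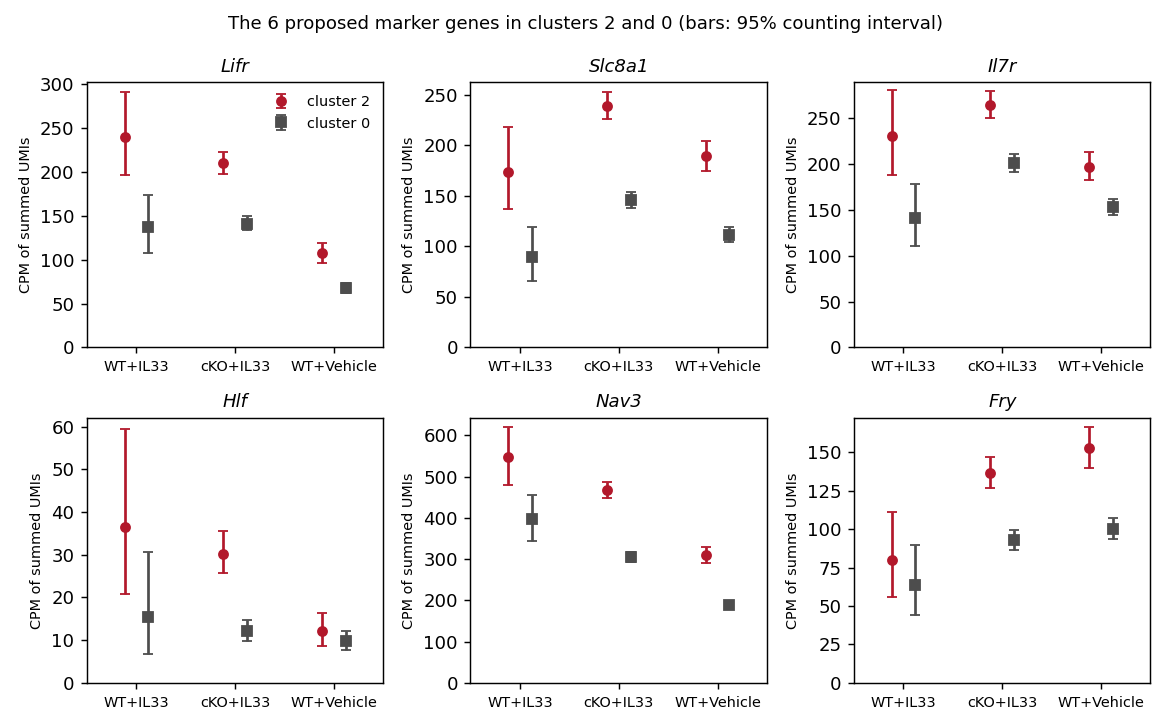
CPM of summed UMIs for the 6 proposed marker genes in cluster 2 (circles) and cluster 0 (squares) of each library, with bars for the 95% counting interval. Cluster 2 lies above cluster 0 in each panel and library, and the intervals overlap for Hlf in WT+IL33 and WT+Vehicle and for Fry in WT+IL33.

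The markers were widely shared with cluster 0. A Lifr UMI was found in 65.0% of cluster 2 cells and 49.1% of cluster 0 cells in cKO+IL33, and in 41.9% and 29.2% in WT+Vehicle. An Il7r UMI was found in 68.9% and 58.1% of cells in cKO+IL33 and in 57.9% and 49.1% in WT+Vehicle. After thinning each cell to 3000 UMIs, Lifr was seen in 43.5% and 30.6% of cells in cKO+IL33, and in 26.8% and 16.7% in WT+Vehicle. Thinned shares of Il7r were 49.4% and 42.0% in cKO+IL33 and 39.7% and 33.7% in WT+Vehicle. Hlf was seen in 7.78% and 3.16% of thinned cells in cKO+IL33, but in 2.22% and 2.95% in WT+Vehicle, where its share was not higher in cluster 2. At this depth 49.3% of cluster 2 cells and 26.8% of cluster 0 cells in cKO+IL33 held UMIs of 3 or more of the 6 genes, and 28.8% and 13.2% in WT+Vehicle. Thinning left out 27 and 46 cells in cKO+IL33 and 19 and 38 in WT+Vehicle. No cell type that should lack these genes was used as a background for the shares.

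Among 1411 genes higher in cluster 2 in both deep libraries, ranked by the smaller of the log2 ratios, Slc8a1 ranked 7, Nav3 23, Lifr 43, Fry 55 and Il7r 423. Hlf was not ranked, because it was under 50 CPM in both clusters. The name therefore does not describe the genes that set the cluster apart most, and the cells are called cluster 2 here.

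Differences between clusters 2 and 0 were small and spread over many genes. In cKO+IL33, of 3802 genes at 50 CPM or more on either side, 1 was more than 2-fold higher (0.0263%) and 1 more than 2-fold lower (0.0263%). In WT+Vehicle, of 3669 genes, none was more than 2-fold higher (0.0%) or lower (0.0%). The gene past 2-fold upward in cKO+IL33, named after its value was seen, was Gm43221, an antisense RNA gene within Fam102b, at 57.5 CPM against 25.6 CPM (2.25-fold, 1.88 to 2.70). In WT+Vehicle it stood at 39.9 against 23.9 CPM (1.67-fold, 1.33 to 2.09). At 1.5-fold, a limit chosen after seeing the data, 101 genes were higher (2.66%) and 10 lower (0.263%) in cKO+IL33, and 129 higher (3.52%) and 10 lower (0.273%) in WT+Vehicle. The counting interval lay above 1 for 1824 genes and below 1 for 738 in cKO+IL33, and for 1731 and 717 in WT+Vehicle. The split depended on the scaling: 67.4% of genes in cKO+IL33 and 66.7% in WT+Vehicle had a ratio above 1 by CPM, against 44.9% and 45.2% with TMM factors (edgeR's trimmed mean scaling), which shifted the median log2 ratio by -0.19 and -0.20. With TMM factors, 9 genes were 1.5-fold higher and 237 lower in cKO+IL33, and 15 and 241 in WT+Vehicle. Each ratio is best read against the median of all genes, a log2 of 0.15 in cKO+IL33 and 0.16 in WT+Vehicle. Of the 3544 genes at 50 CPM or more in both libraries, 38 were 1.5-fold higher in both. Among these 3544 genes, 80 were 1.5-fold higher in cKO+IL33 and 119 in WT+Vehicle, so the shared genes made up 47.5% and 31.9%. Of 10 genes 1.5-fold lower in each library, 3 were lower in both.

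Of the 15 genes with the highest ratio shared by both deep libraries, Slc8a1 is described above and 5 were noncoding. Pcnt, the centrosomal scaffold pericentrin, stood at 60.7 against 34.8 CPM in cKO+IL33 (1.75-fold, 1.48 to 2.06) and at 53.8 against 28.7 CPM in WT+Vehicle (1.87-fold, 1.54 to 2.28). Dst, the cytoskeletal linker dystonin, stood at 939 against 570.2 CPM (1.65-fold) and 714 against 447 CPM (1.60-fold). Cep350, a centrosomal protein, was 1.58-fold and 1.72-fold higher in the same 2 libraries. The golgins Golga4 and Trip11 were 1.67-fold and 1.60-fold higher in cKO+IL33, and 1.60-fold and 1.65-fold higher in WT+Vehicle. Sik2, a salt-inducible kinase, was 1.72-fold and 1.63-fold higher. Lcorl, a nuclear corepressor-like protein, stood at 164 against 97.1 CPM in cKO+IL33 and 170 against 99.5 CPM in WT+Vehicle. Rlf, a zinc finger protein, was 1.63-fold and 1.58-fold higher, and Tasor2, a chromatin-associated protein, 1.64-fold and 1.65-fold.

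Kcnq1ot1 (chromosome 7, 143203458 to 143296549, minus strand), the imprinted RNA that lies antisense within Kcnq1, had 446 CPM in cluster 2 of WT+IL33, 342 in cKO+IL33 and 255 in WT+Vehicle. In cluster 0 it had 215, 206 and 153 CPM, so that cluster 2 was above cluster 0 in all 3 libraries. In WT+IL33 this was not particular to cluster 2, since clusters 1 and 3 stood at 447 and 466 CPM and cluster 0 was the lowest. Gm47664 (chromosome 13, 20499888 to 20501227, plus strand) is annotated inside an intron of Elmo1 on the same strand. It stood at 289 against 174 CPM in cKO+IL33 (1.66-fold) and at 256 against 145 CPM in WT+Vehicle (1.77-fold). Gm29488 (chromosome 1, 131406812 to 131409213, minus strand), inside an intron of Srgap2, was 1.77-fold higher in cKO+IL33 (1.54 to 2.03) and 1.74-fold in WT+Vehicle (1.49 to 2.03). The intergenic RNAs Gm37494 and 4933406I18Rik were 1.67-fold and 1.59-fold higher in cKO+IL33 and 1.73-fold and 1.70-fold in WT+Vehicle.

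The genes with the lowest ratios mostly encode small proteins. Ifi27l2a, an interferon-inducible gene, stood at 38.0 against 107 CPM in cKO+IL33 (2.81-fold lower, 2.40 to 3.30) and at 101 against 181 CPM in WT+Vehicle (1.78-fold lower, 1.58 to 2.01). Tspo, the outer mitochondrial membrane protein used as an imaging marker of microglial activation, was 1.5-fold lower in cKO+IL33 (1.26 to 1.79) and 1.83-fold lower in WT+Vehicle (1.5 to 2.24). Dbi, an acyl-CoA-binding protein that also binds Tspo, was 1.43-fold lower in both libraries. Cd52, a small glycoprotein anchored in the membrane of leukocytes, stood at 219 against 313 CPM and at 251 against 364 CPM. Atox1, a copper chaperone, was 1.44-fold and 1.42-fold lower, and Sh3bgrl3 1.43-fold lower in both. Emp3, Esd, Cenpx and the noncoding Gm10076 made up the rest, at between 1.43-fold and 1.61-fold lower in cKO+IL33 and between 1.44-fold and 1.70-fold lower in WT+Vehicle.

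Gene lists showed which groups the members of each side belonged to, counted over genes at 10 CPM or more on either side. Over all 8514 such genes in cKO+IL33 and 8356 in WT+Vehicle, 5.27% and 6.56% were 1.5-fold higher and 0.728% and 0.91% 1.5-fold lower. The interval lay above 1 for 35.4% of them in cKO+IL33 and 33.0% in WT+Vehicle, and below 1 for 11.1% and 10.8%. Chromatin regulators had a median log2 ratio of 0.42 in cKO+IL33 and 0.48 in WT+Vehicle, and the interval lay above 1 for 22 of 23 members in each library and below 1 for 0. Kmt2a, a histone methyltransferase, stood at 160 against 106 CPM (1.5-fold) and at 151 against 101 CPM (1.51-fold). Chd2, a chromatin remodeller, was 1.49-fold and 1.47-fold higher, the methyltransferase Setd2 1.44-fold and 1.43-fold, and Ash1l 1.43-fold and 1.46-fold. Splicing and nuclear speckle genes had medians of 0.30 and 0.29, with the interval above 1 for 19 and 20 of 23 members. Examples were the helicase Ddx17 at 1.49-fold and 1.53-fold, the splicing factor Rbm25 at 1.44-fold in both, and the kinase Clk1 at 1.37-fold and 1.52-fold.

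RNAs that stay in the nucleus had medians of 0.41 in cKO+IL33 and 0.60 in WT+Vehicle, and all 6 of the 12 listed RNAs that were measured had an interval above 1 in both. Malat1, an abundant RNA of nuclear speckles, stood at 29920 CPM in cluster 2 of WT+IL33, 31860 in cKO+IL33 and 28870 in WT+Vehicle, against 23580, 24680 and 21930 CPM in cluster 0. Neat1, the scaffold of paraspeckles, was 1.26-fold higher than in cluster 0 in cKO+IL33 and 1.56-fold in WT+Vehicle. Cluster 3 held more of it than cluster 2, at 81.1 against 55.0 CPM in cKO+IL33 and 69.0 against 57.6 CPM in WT+Vehicle. Mir99ahg was 1.36-fold and 1.48-fold higher. Xist, the X-inactivating RNA, could be compared in cKO+IL33 only, at 3192 against 2448 CPM (1.30-fold, 1.28 to 1.33). Tsix overlaps Xist on the other strand, and the sources do not say whether counting used the strand.

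Ribosomal protein genes stood on the other side. Their median log2 ratio was -0.46 in cKO+IL33 and -0.40 in WT+Vehicle, and 80 of 82 had an interval below 1 in each library, with 0 above. Rps26 stood at 684 CPM in cluster 2 of WT+IL33, 806 in cKO+IL33 and 972 in WT+Vehicle, against 939, 1220.0 and 1370.0 CPM in cluster 0. Rplp0 was 1.47-fold lower in cKO+IL33 and 1.42-fold in WT+Vehicle. Translation factors followed, with medians of -0.42 and -0.36 and intervals below 1 for 19 and 18 of 20 members. Naca was 1.36-fold and 1.42-fold lower and Fau 1.40-fold and 1.36-fold. Nuclear genes of oxidative phosphorylation had medians of -0.37 and -0.39, with intervals below 1 for 34 and 33 of 35 members. Among these, Ndufa4 was 1.36-fold and 1.45-fold lower and Cox4i1 1.38-fold and 1.35-fold lower. The 13 mitochondrially encoded genes had medians of -0.02 and 0.07, or -0.21 and -0.13 with TMM factors. The interval lay above 1 for 3 and 5 of them and below 1 for 6 and 5. Of these, mt-Nd6 was 1.40-fold and 1.64-fold higher, and mt-Co3 was 1.10-fold and 1.07-fold lower.

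**Figure D2:**
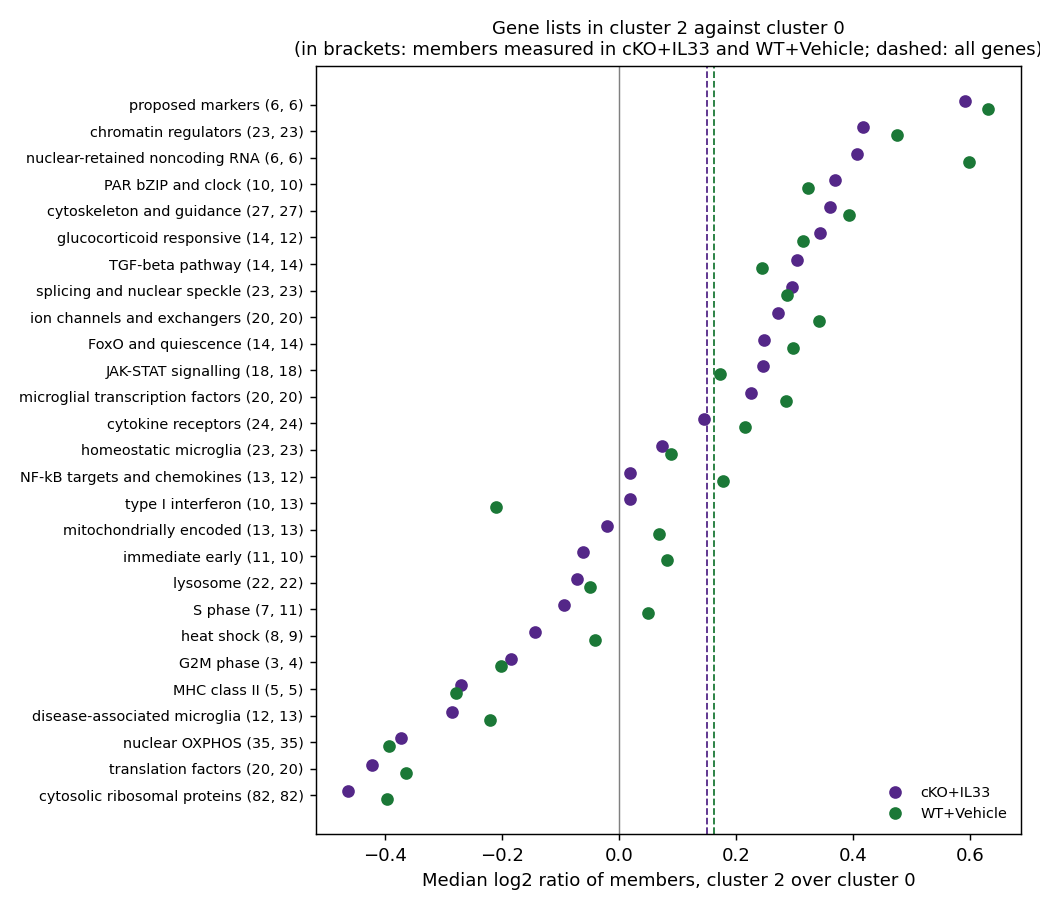
Median log2 ratio of cluster 2 over cluster 0 for the members of each gene list in cKO+IL33 and WT+Vehicle, with the medians of all genes as dashed lines. Chromatin and nuclear RNA lists lie at 0.41 or above in both libraries, and ribosomal, translation and oxidative phosphorylation lists at -0.36 or below.

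The cytoskeletal list was split by kind of gene. Its median was 0.36 in cKO+IL33 and 0.39 in WT+Vehicle, with intervals above 1 for 18 and 19 of 27 members and below 1 for 6 in each. Large linkers and guidance proteins were higher, such as Macf1 at 720 against 489 CPM and 784 against 514 CPM, Srgap2 (1.37-fold and 1.32-fold), Elmo1 (1.35-fold and 1.39-fold) and Dock10 (1.33-fold and 1.43-fold). The 6 lower members were the actin genes Actb and Actg1 and the small actin-binding proteins Tmsb4x, Cfl1, Pfn1 and Cotl1. Actb, the major cytoplasmic actin, stood at 6017 against 7573 CPM in cKO+IL33 and at 7695 against 9606 CPM in WT+Vehicle.

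Receptors for cytokines, the class that gave the cluster its name, lay near all genes by their median. Their median was 0.15 in cKO+IL33, which turned to -0.04 with TMM factors, and 0.22 in WT+Vehicle. The interval lay above 1 for 14 and 15 of 24 members and below 1 for 2 in each. The share above 1 was larger than the 35.4% and 33.0% of all genes at 10 CPM or more. That background depends on level, since at 50 CPM or more it was 1824 of 3802 and 1731 of 3669 genes. The list also holds Lifr and Il7r, which named the cluster. Il6st, the gp130 chain with which Lifr pairs, stood at 238 CPM in cluster 2 of WT+IL33, 227 in cKO+IL33 and 317 in WT+Vehicle, against 229, 170 and 221 CPM in cluster 0. Its ratio was 1.34 in cKO+IL33 and 1.44 in WT+Vehicle. Il6ra, the interleukin 6 receptor, was 1.25-fold and 1.24-fold higher, Il10ra 1.31-fold and 1.22-fold, and the TGF-β receptors Tgfbr1 1.26-fold and 1.32-fold and Tgfbr2 1.25-fold and 1.41-fold. Csf2ra and Crlf2 were lower, by 1.18-fold and 1.34-fold and by 1.26-fold and 1.23-fold. Il1rl1 differed by less than its counting error, with a ratio of 1.23 in cKO+IL33 (0.896 to 1.67) and 0.929 in WT+Vehicle (0.629 to 1.35).

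JAK-STAT genes, which act downstream of these receptors, and the further lists given here had medians above that of all genes by CPM. That median was 0.15 in cKO+IL33 and 0.16 in WT+Vehicle, and JAK-STAT genes lay close to it in WT+Vehicle. JAK-STAT genes had medians of 0.25 in cKO+IL33 and 0.17 in WT+Vehicle, the latter -0.02 with TMM factors, and intervals above 1 for 9 and 8 of 18 members. Pias1, an inhibitor of activated STATs, was 1.23-fold and 1.33-fold higher, and the survival gene Mcl1 1.16-fold and 1.24-fold. Jak1 was 1.14-fold and 1.10-fold higher by CPM, but at 0.998 and 0.959 with TMM factors. Genes of the TGF-β pathway had medians of 0.30 and 0.25, with intervals above 1 for 10 of 14 members in both libraries. Ion channels and exchangers had medians of 0.27 and 0.34, with intervals above 1 for 14 and 13 of 20. Of these, the potassium channel Kcnk6 was 1.37-fold and 1.34-fold higher, and the cation channel Trpm7 1.28-fold and 1.38-fold. The clock and PAR bZIP list had medians of 0.37 and 0.32, with intervals above 1 for 8 and 6 of 10. Tef, a relative of Hlf, was 1.31-fold and 1.57-fold higher, and the clock gene Nr1d2 1.40-fold and 1.36-fold. FoxO and quiescence genes had medians of 0.25 and 0.30, with intervals above 1 for 8 and 6 of 14 members and below 1 for 1 in each library. The lowest measured member in both was Klf2, with ratios of 0.328 in cKO+IL33 and 0.742 in WT+Vehicle.

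Microglial identity genes were present at similar levels in both clusters. Homeostatic genes had medians of 0.07 in cKO+IL33 and 0.09 in WT+Vehicle, which turned to -0.12 and -0.11 with TMM factors. The interval lay above 1 for 12 of 23 in each library and below 1 for 10 and 8. P2ry12, the purinergic receptor that guides microglial processes, stood at 3431 CPM in cluster 2 of WT+IL33, 4161 in cKO+IL33 and 4431 in WT+Vehicle, against 2661, 3562 and 3808 CPM in cluster 0. Mertk, a receptor for apoptotic cells, was 1.34-fold and 1.37-fold higher and Sall1 1.33-fold and 1.27-fold. The secreted proteins C1qb and Cst3 were lower, by 1.25-fold and 1.21-fold and by 1.22-fold and 1.20-fold. Microglial transcription factors had medians of 0.23 and 0.29, with intervals above 1 for 15 of 20 members in both libraries and below 1 for 3 and 2. Mef2a stood at 1406 against 965 CPM in cKO+IL33 and at 1348 against 913 CPM in WT+Vehicle. Zeb1, a zinc finger repressor, was 1.98-fold higher in cKO+IL33 (1.77 to 2.22) and 1.40-fold in WT+Vehicle (1.22 to 1.60).

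Genes of disease-associated microglia were lower in cluster 2. Their medians were -0.29 in cKO+IL33 and -0.22 in WT+Vehicle, with intervals below 1 for 11 of 12 and 9 of 13 members and above 1 for 0. Fth1, the ferritin heavy chain, was 1.43-fold and 1.41-fold lower, the adaptor Tyrobp 1.31-fold and 1.29-fold, and Apoe 1.31-fold and 1.16-fold. Of the 5 measured genes of the MHC class II list, 3 had an interval below 1 in each library. These were Cd74, H2-DMa (1.32-fold lower in both) and H2-DMb1. An interval above 1 was found for 2 in cKO+IL33 and 1 in WT+Vehicle. The members with ratios above 1 were Cd80 (1.61 and 1.07) and Cd86 (1.16 and 1.11), costimulatory ligands kept on this list that are not class II genes. Lysosomal genes had medians of -0.07 and -0.05, with intervals below 1 for 13 of 22 in both. Heat shock genes, which can mark dissociation stress, had medians of -0.14 and -0.04. Their interval lay below 1 for 4 of 8 and 4 of 9 members and above 1 for 1 and 3. Immediate early genes had medians of -0.06 and 0.08, the latter -0.11 with TMM factors. Their interval lay below 1 for 5 of 11 and 2 of 10 members and above 1 for 1 and 2. The type I interferon list had medians of 0.02 and -0.21, with Irf9 1.30-fold and 1.55-fold higher and Bst2 1.49-fold and 1.35-fold lower. NF-kB targets had medians of 0.02 and 0.18, and S phase genes -0.09 and 0.05. With TMM factors the interferon, NF-kB and S phase medians were below 0 in both libraries. G2M genes had medians of -0.18 and -0.20 over 3 and 4 measured members, and Mki67 stood at 1.20 CPM in cKO+IL33 and 4.14 CPM in WT+Vehicle.

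The ratio followed the length of the gene. Among protein-coding genes at 50 CPM or more, placed in 5 equal groups by annotated span with introns, the median log2 ratio in cKO+IL33 went from -0.22 in the shortest through 0.03, 0.14 and 0.26 to 0.34 in the longest. In WT+Vehicle the 5 medians were -0.23, 0.02, 0.15, 0.28 and 0.34, and in WT+IL33 -0.25, -0.01, 0.15, 0.26 and 0.35. The shortest group spanned at most 9127 bp in cKO+IL33 and the longest at least 77718 bp. In the longest group 95% of genes had a ratio above 1 in both deep libraries, against 23.6% in cKO+IL33 and 25.4% in WT+Vehicle in the shortest. By exon length alone the medians went from -0.23 in the shortest to 0.36 in the longest in cKO+IL33 and from -0.25 to 0.38 in WT+Vehicle. Span and exon length move together, so genes were also divided into 3 classes of exon length and each class at its median span. Genes of longer span had the higher median in every class: in cKO+IL33 -0.07 against -0.25, 0.21 against 0.12 and 0.37 against 0.29. In WT+Vehicle these values were -0.07 against -0.27, 0.23 against 0.11 and 0.37 against 0.31. Genes are not independent replicates, and these medians describe the libraries.

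**Figure D3:**
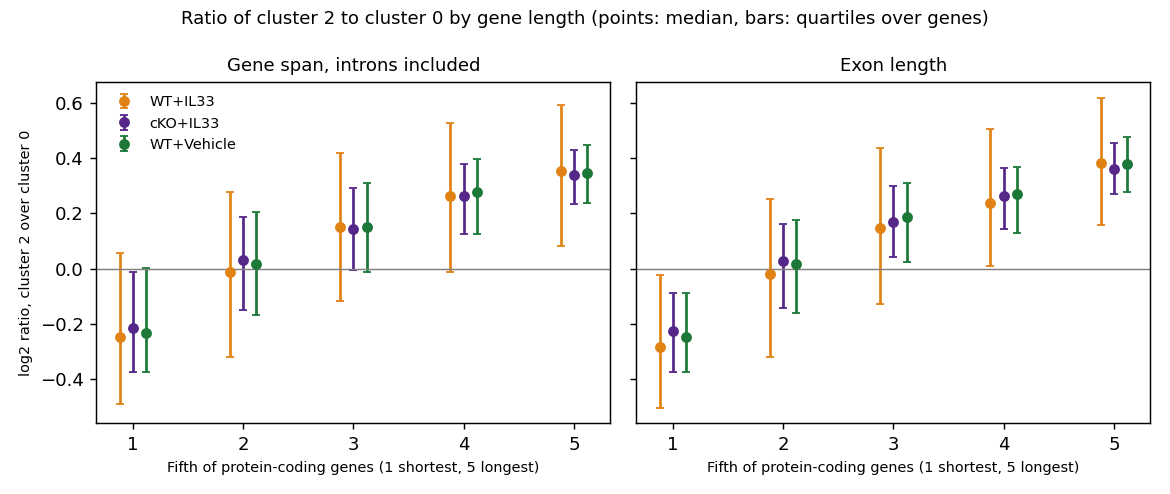
Median log2 ratio of cluster 2 over cluster 0, with bars for the quartiles over genes, in 5 equal groups of protein-coding genes ordered by length, for each library. By span the medians climb from between -0.25 and -0.22 in the shortest genes to between 0.34 and 0.35 in the longest.

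Genes annotated as sense-intronic, which lie inside an intron of a host gene on its own strand, had higher ratios than most of their hosts. Summed, they held 1435 CPM in cluster 2 of WT+IL33, 1394 in cKO+IL33 and 1307 in WT+Vehicle, against 896, 888 and 839 CPM in cluster 0. The ratios were 1.60 (1.42 to 1.81), 1.57 (1.52 to 1.62) and 1.56 (1.5 to 1.62), so the 3 libraries lay close together. Summed intergenic long noncoding RNAs had ratios of 1.22 in cKO+IL33 and 1.23 in WT+Vehicle, and antisense RNAs 1.27 and 1.20. Of 25 intronic genes with a single host, 18 in each deep library had an interval above 1 and 0 had one below. Some of the 25 reached 10 CPM only in cluster 2, such as Gm38115 (12.2 against 9.16 CPM in cKO+IL33) and Gm43331 (15.5 against 7.50 CPM). A minimum of 10 CPM on either side fixes the direction of such genes, and the counts and medians given here rest partly on them. The 25 pairs had 19 hosts, of which 3 held 3 intronic genes each, so some hosts are counted more than once. The intronic gene had a higher ratio than its host in 22 of the 25 pairs in cKO+IL33 and in 21 in WT+Vehicle. Their median log2 ratio was 0.64 in cKO+IL33 and 0.53 in WT+Vehicle, against 0.20 and 0.23 for the hosts. With each host counted once and set against the median of its intronic genes, 17 of 19 hosts in cKO+IL33 and 15 in WT+Vehicle had the lower ratio. In Rap1a, a small GTPase gene chosen here after its values were seen, the 3 intronic genes Gm43328, Gm43329 and Gm43331 had ratios of 2.08, 1.81 and 2.07 in cKO+IL33 and 1.60, 1.53 and 1.58 in WT+Vehicle. Rap1a itself had ratios of 0.927 (0.858 to 1.0) and 0.951 (0.872 to 1.04). The sources do not say whether reads in introns were counted for the host genes.

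**Figure D4:**
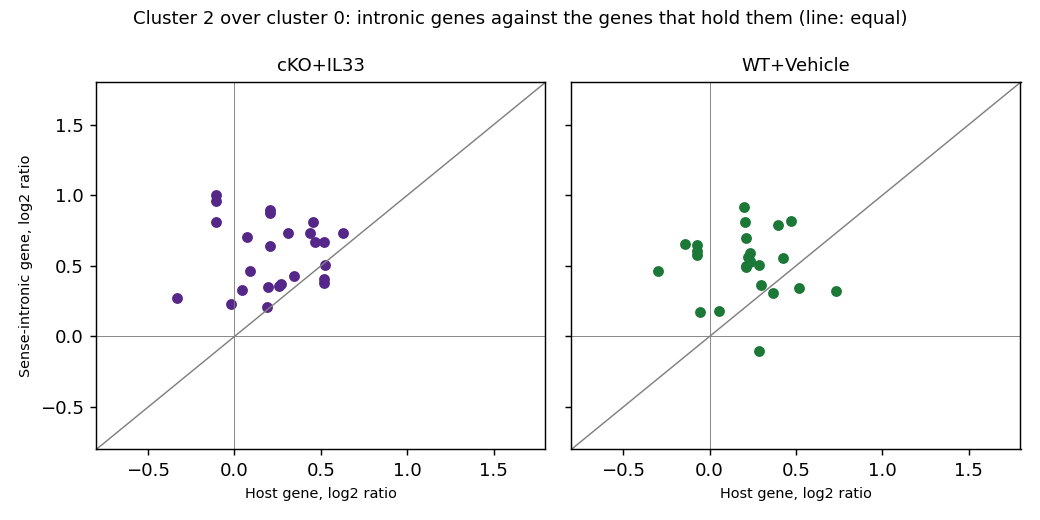
Log2 ratio of cluster 2 over cluster 0 for 25 sense-intronic genes (vertical) against that of the gene whose intron holds them (horizontal), in cKO+IL33 and WT+Vehicle, with a line where both are equal. In cKO+IL33 22 points and in WT+Vehicle 21 lie above the line.

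Per-cell measures showed the same composition. In cKO+IL33 the median cluster 2 cell held 5351 UMIs and the median cluster 0 cell 4882. In WT+Vehicle the medians were 5248 and 5305, and in WT+IL33 3421 and 3230.0. By means, cluster 2 was the deeper in all 3 libraries, with 6965 against 6115 UMIs per cell in cKO+IL33, 6572 against 6276 in WT+Vehicle and 4283 against 3581 in WT+IL33. Thinned to 3000 UMIs, the median cluster 2 cell still had more genes in each library, with 1647 against 1555 in WT+IL33, 1606 against 1507 in cKO+IL33 and 1558 against 1468 in WT+Vehicle. The mitochondrial share was 1.89% against 2.05% in WT+IL33, 2.23% against 2.45% in cKO+IL33 and 2.85% against 2.93% in WT+Vehicle. The ribosomal share was 9.09% against 12% in WT+IL33, 10.3% against 13.9% in cKO+IL33 and 12.3% against 15.9% in WT+Vehicle. Of cluster 0 cells, 94.4% in cKO+IL33 and 91.3% in WT+Vehicle lay above the cluster 2 median of the ribosomal share.

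UMIs in genes spanning 100 kb or more made up 10.8% of the median cluster 2 cell in WT+IL33, 11.0% in cKO+IL33 and 10.6% in WT+Vehicle, against 8.66%, 8.88% and 8.56% in cluster 0. Only 1.16% of cluster 0 cells in cKO+IL33 and 1.81% in WT+Vehicle lay above the cluster 2 median. These gaps were present at each depth. In cells of 2100 to 4000, 4000 to 6000 and 6000 to 20000 UMIs of cKO+IL33, the median ribosomal share in cluster 2 was 9.52%, 10.1% and 10.7%, against 13.3%, 14.1% and 14.0% in cluster 0. The share in long genes in the same bins was 11.0% in each for cluster 2, against 8.96%, 8.78% and 8.88% for cluster 0. Cells called G1 made up 72.5% of cluster 2 and 67.4% of cluster 0 in cKO+IL33, and 64.7% and 59.2% in WT+Vehicle. Malat1 made up 3.21% of the median cluster 2 cell and 2.51% of the median cluster 0 cell in cKO+IL33, and 2.88% and 2.21% in WT+Vehicle. The part of the mitochondrial and Malat1 shares, which are often read as signs of RNA quality, in the other differences was not tested.

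**Figure D5:**
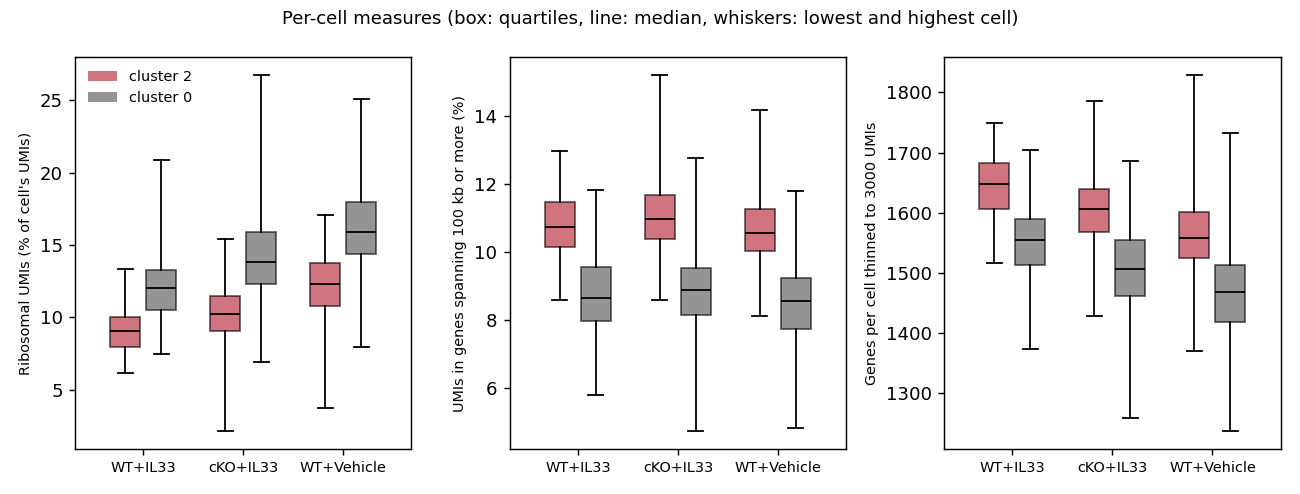
Per-cell measures in clusters 2 and 0 of each library, with boxes for the quartiles, lines for the medians and whiskers for the lowest and highest cell. By medians, the ribosomal share is lower in cluster 2 in all 3 libraries. The share of UMIs in long genes and the genes per thinned cell are higher.

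Between libraries, cluster 2 of the library labelled cKO+IL33 was compared with cluster 2 of WT+Vehicle, with cluster 0 of the same libraries beside it. Of 3803 genes, 13 were more than 2-fold higher (0.342%) and 6 lower (0.158%) in cKO+IL33. In cluster 0 these numbers were 14 (0.401%) and 4 (0.115%) of 3493 genes. Sex-linked genes were among them: Xist stood at 3192 CPM against 0 (at least 3602-fold higher against a floor of 3 counts in the sum), and Tsix at 341 CPM against 0. Ddx3y, Eif2s3y and Uty on the Y chromosome stood at 0 CPM in cKO+IL33 and at 116, 86.9 and 56.7 CPM in WT+Vehicle. Both clusters carried this difference of sex.

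Other than these, the highest genes in cKO+IL33 included known targets of glucocorticoids and inhibitors of growth signalling. Fkbp5, a glucocorticoid-induced co-chaperone of the glucocorticoid receptor, stood at 499 CPM in cluster 2 of WT+IL33, 425 in cKO+IL33 and 143 in WT+Vehicle. The vehicle library was thus the low one, with a ratio of 2.97 for cKO+IL33 (2.69 to 3.29) and 2.74 in cluster 0. Klf4, a zinc finger transcription factor, stood at 62.7 against 16.8 CPM (3.72-fold, 2.80 to 5.03) and had a ratio of 3.0 in cluster 0. Sult1a1, a sulfotransferase, stood at 134 against 42.8 CPM (3.12-fold), Pik3ip1, an inhibitor of PI3 kinase, at 53.4 against 18 CPM (2.96-fold), and Phlpp2, a phosphatase of Akt, at 66.7 against 29.5 CPM (2.26-fold). In cluster 0 these ratios were 3.17, 4.17 and 1.82. The noncoding Gm20045 was 2.32-fold higher, and 2.42-fold in cluster 0.

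Lower in cKO+IL33 were Gm26917, a noncoding RNA, at 98.2 against 292 CPM (2.98-fold lower), Ifi27l2a (2.67-fold lower) and the linker histone Hist1h1e at 97.4 against 204 CPM (2.10-fold lower). In cluster 0 these genes were 2.65-fold, 1.69-fold and 1.85-fold lower. Igfbp4, which binds insulin-like growth factors, was 1.93-fold lower and the noncoding Gm20033 1.92-fold. The glucocorticoid list had a median log2 ratio of 0.57 in cluster 2, with the interval above 1 for 11 of 14 members and below 1 for 1 (Cdkn1a, 1.96-fold lower), beside 0.05 over all genes. In cluster 0 its median was 0.48, with 11 of 13 members above. Over all genes at 10 CPM or more the interval lay above 1 for 15.2% and below 1 for 9.29% in cluster 2, and for 21.8% and 11.6% in cluster 0. Ddit4, an inhibitor of mTOR, stood at 359 CPM in cluster 2 of WT+IL33, 268 in cKO+IL33 and 125 in WT+Vehicle, and Tsc22d3 at 137, 108 and 54.1 CPM. The S phase list had a median of -0.61, with 8 of 11 members below, and the type I interferon list -0.46, with 6 of 12 below. In cluster 0 both medians were -0.37, with 5 of 11 and 8 of 12 members below. Within cKO+IL33, only 7 S phase and 10 interferon members reached 10 CPM in cluster 2 or 0. Cluster 2 members not among these entered only through WT+Vehicle, which fixed their direction. Likewise only 12 glucocorticoid members reached 10 CPM within WT+Vehicle, so the others of the 14 entered only through cKO+IL33. The counts and medians of these lists rest partly on such members.

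Of the proposed markers, Lifr was 1.96-fold higher in cKO+IL33 than in WT+Vehicle within cluster 2 (1.74 to 2.22), and 2.09-fold within cluster 0. Nav3 was 1.51-fold higher in cluster 2 and 1.62-fold in cluster 0, and Il7r 1.34-fold and 1.32-fold. Slc8a1 was 1.26-fold higher in cluster 2 (1.15 to 1.39) and 1.31-fold in cluster 0. Hlf was 2.5-fold higher in cluster 2 and 1.25-fold in cluster 0. Fry was at 0.894 in cluster 2 and 0.927 in cluster 0, with intervals that included 1. For Lifr, Nav3, Il7r and Slc8a1 the libraries therefore differed in both clusters, and the ratio of Lifr between libraries was above its ratio between clusters in either deep library.

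The 102 cells of cluster 2 in WT+IL33 differed from the 1815 cells of cluster 1, the most numerous of that library, and the 144 cells of cluster 0 lay near cluster 2 in the genes given here. Il12b, a subunit of interleukins 12 and 23, had 16.0 CPM in cluster 2, 19.4 in cluster 0 and 1381 in cluster 1 of WT+IL33, and 0 UMIs in cluster 2 of cKO+IL33 and WT+Vehicle. A count of 0 in 721 and 515 cells allows shares of cells with a UMI of up to 0.51% and 0.714% (upper bounds of the exact binomial 95% interval). Il1b stood at 75.5 CPM in cluster 2, 97.0 in cluster 0 and 1320.0 in cluster 1, and was seen in 10.8%, 11.8% and 74.3% of cells. The chemokine Ccl4 stood at 108, 138 and 5674 CPM in the same order, and was seen in 18.6%, 21.5% and 85.5% of cells. Tnf stood at 73.2, 110.5 and 433 CPM. P2ry12 went the other way, with 3431 CPM in cluster 2, 2661 in cluster 0 and 725 in cluster 1.

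The list of NF-kB targets and chemokines had a median log2 ratio of -2.96 for cluster 2 over cluster 1, with intervals below 1 for 22 of 23 members. Among 4417 genes in that comparison 13.7% were 2-fold higher and 8.24% 2-fold lower, and at 10 CPM or more the interval lay below 1 for 14.0%. Against cluster 2 of WT+Vehicle the same list was higher in WT+IL33, with a median of 2.61 and intervals above 1 for 21 of 21 measured members. There 4.2% of 4166 genes were 2-fold higher and 1.13% lower, and at 10 CPM or more the interval lay above 1 for 12.9%. Cluster 0 had a median of 2.82 in the same comparison, with 22 of 22 above, beside 16.6% of all genes. Both library comparisons share the vehicle library. List members entered at 10 CPM or more on either side, so members under 10 CPM in WT+Vehicle entered only through WT+IL33. The direction of such members was fixed by that filter, and the counts and medians of the list rest partly on them. Among them, Il1b stood at 0.296 and Ccl4 at 2.66 CPM in cluster 2 of WT+Vehicle, and at 0.240 and 7.20 CPM in cluster 0. The same filter applied to the comparison with cluster 1. The part of free RNA from cluster 1 cells in the chemokine UMIs of clusters 2 and 0 was not tested. The proposed markers were lower in cluster 1 of WT+IL33 than in cluster 2, with Lifr at 37.4 CPM, Slc8a1 at 31.5, Il7r at 19.9, Hlf at 3.25, Nav3 at 181 and Fry at 20.3.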

How the data were processed

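Single-cell RNA from CD45+ sorted thalamic cells was captured with 10x Chromium Chip G v3.1 chemistry, per the labels' protocols. UMI counts per gene and cell were deposited by the authors, with a cell table that gives cluster, library, UMI count, genes, mitochondrial and ribosomal percent, cell cycle phase and sex call. Cell Ranger 5.0, Seurat 4.0.1 and GRCm38 are named in the submitters' processing notes. Their filters, doublet treatment, strand use and counting of intronic reads were not stated in those notes or the labels, and no doublet caller was run. All deposited cells of a cluster were used.

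Counts were summed per library and cluster and scaled to CPM. A pseudocount of 1 CPM was added for log2 ratios. Those genes that reached 50 CPM on either side entered counts past 2-fold, and list members at 10 CPM or more entered list medians. A gene above the minimum on a single side could enter only in the direction of that side. Named genes were the 6 proposed markers, the 15 highest and 10 lowest by the smaller log2 ratio of cKO+IL33 and WT+Vehicle, up to 4 members per list, and the 8 highest and 8 lowest between those libraries. The cluster, its markers and the 27 lists were chosen with earlier results of these data known. Some listed genes are not reported here. Gene spans and biotypes came from GENCODE M21, which matched 98.0% of symbols. Depth bounds precision: summed UMIs per cluster and library ran from 436915 to 8402141 in clusters 2 and 0, and intervals (95%) cover counting error only.

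The comparison of clusters 2 and 0 in cKO+IL33 was also run on simulated Poisson sums, which hold no variation between cells, with 3548 genes at 50 CPM. There all 197 genes changed 3-fold were past 2-fold and 0 of 3351 unchanged genes were. Smaller changes, such as most of those between clusters 2 and 0, were not simulated, so this run checks the calculation only. Python 3.11.15 (numpy 2.4.6, scipy 1.17.1, pandas 2.3.3, matplotlib 3.10.9) and R 4.3.3 with edgeR 4.0.16, for TMM factors as a scaling only, were used. Alternatives changed the CPM minimum, scaling, pseudocount, depth window and cells. The 1.5-fold counts and the TMM scaling of markers and lists were added after seeing the data.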

Additional observations from a re-analysis of the deposited data

Results flagged for a closer look

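For 598 genes and 4 pairs of comparisons, values were searched for ratios whose counting intervals lay on opposite sides of 1. There was 1 library per group, so none of these differences was tested, and a search of this size finds some by chance. Fcrls, a microglial surface gene, had a ratio of cluster 2 to cluster 0 of 0.969 in cKO+IL33 (0.944 to 0.995) and 1.06 in WT+Vehicle (1.03 to 1.10). Cebpa, a myeloid transcription factor, had a ratio of 1.63 in WT+IL33 (1.03 to 2.62) and 0.855 in cKO+IL33 (0.761 to 0.959). Pcna, the replication clamp, had a ratio of 2.46 in WT+IL33 (1.19 to 5.37) and 0.82 in cKO+IL33 (0.679 to 0.987). Between cKO+IL33 and WT+Vehicle, the cathepsin gene Ctsl had a ratio of 0.953 in cluster 2 (0.918 to 0.989) and 1.03 in cluster 0 (1.0 to 1.05). Rpl37a, a ribosomal protein gene, had ratios of 0.957 (0.924 to 0.990) and 1.03 (1.01 to 1.05) in the same comparison.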

How the results depend on the processing

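No paired analysis was possible because each group is a single library, and the clusters set side by side within libraries were formed on these genes, so that no test was made of them. Counts past a fold depended on the level minimum and the scaling. At 10 CPM, 36 genes in cKO+IL33 and 38 in WT+Vehicle were past 2-fold between clusters 2 and 0, and with at least 3 UMIs in place of a CPM minimum 1339 and 1370. With TMM scaling these counts were 1 and 2. In WT+Vehicle 3 genes were past 2-fold in cells of 3000 to 8000 UMIs, 3 in G1-called cells and 1 without cells holding border macrophage UMIs. Genes 1.5-fold higher in cKO+IL33 numbered 449 at 10 CPM, 1925 at 3 UMIs, 56 without mitochondrial and ribosomal genes, 9 with TMM scaling and 189 in cells of 3000 to 8000 UMIs. In WT+Vehicle they numbered 548, 1909, 73, 15 and 219. Genes 1.5-fold lower in cKO+IL33 numbered 62, 865, 31, 237 and 43, with 18 in G1-called cells and 20 by means of per-cell CPM. In WT+Vehicle they numbered 76, 1007, 38, 241 and 28, with 31 in G1-called cells. Between cKO+IL33 and WT+Vehicle within cluster 2, 98 genes were past 2-fold at 10 CPM (66 higher, 32 lower) and 1541 at 3 UMIs (1044 higher, 497 lower), and 20 were higher in cells of 3000 to 8000 UMIs. With TMM scaling the median of cytokine receptors in cKO+IL33 became -0.043 and that of JAK-STAT genes in WT+Vehicle -0.021, and 10 list medians in all took the other sign. Among G1-called cells 5 did, among them S phase in cKO+IL33 (0.17) and type I interferon in WT+Vehicle (0.03), and under 3 other alternatives 6, all in medians within 0.05 of 0 (type I interferon in cKO+IL33 became -0.34 in cells of 3000 to 8000 UMIs). By means over cells, cluster 2 exceeded cluster 0 by 850.2 UMIs per cell in cKO+IL33, against 469.5 by medians, and in WT+Vehicle by 295.7 UMIs, where the medians gave -57. The gap in median log2 ratio between longest and shortest genes was 0.43 at 10 CPM in both libraries, against 0.55 in cKO+IL33 and 0.58 in WT+Vehicle. Among named genes, 162 values under alternatives stayed within the range of the counting intervals of both deep libraries and 13 did not. List medians were set against a binomial interval of the median over list members, which is no counting interval. Of these values 263 stayed within it and 43 did not, the cytokine receptor and JAK-STAT values above not counted. Low counts limit Hlf and all ratios of WT+IL33.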
